A study of Mus musculus with 4 samples.

Results

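The 10 genes described here are the cadherins Cdh1, Cdh2, Cdh3 and Cdh11, the neural cell adhesion molecule gene Ncam1, and Snai1, Snai2, Twist1, Zeb1 and Zeb2, the transcription factors best known from epithelial-mesenchymal transition (EMT). They were taken by name, with every probe set whose platform annotation gives that gene alone, and all 10 were found among the 18193 named genes of the array, with 27 probe sets between them. Each gene is represented by its probe set with the highest mean over the arrays, and the others are given beside it. Expression was measured in K7M2, a mouse osteosarcoma cell line known for its readiness to metastasise, on 1 array of cells over-expressing GFP and 3 arrays (replicates 1, 2 and 3) of cells over-expressing ezrinT567A-GFP. All cells were cultured alike, in DMEM with 10% FBS at 37 °C and 5% CO2. Ezrin is a linker between the plasma membrane and cortical actin, and the T567A substitution replaces its regulatory threonine by an alanine that cannot be phosphorylated. Both groups carry GFP, as a protein of its own in the control and joined to ezrin in the other cells, and endogenous ezrin was not stated to be removed. The labels give neither the promoter of the constructs nor whether the cells were clones or pools. They do not say that the replicates were separate cultures. The p-values therefore cover no more than the variation among the 3 ezrinT567A-GFP arrays, as the single GFP array has no spread.

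Cadherins are calcium-dependent adhesion proteins whose outer repeats bind the same kind of molecule on the next cell, while the inner tail holds catenins that lead to actin. E-cadherin, from Cdh1, is the cadherin of epithelia, and N-cadherin and cadherin-11, from Cdh2 and Cdh11, are those of mesenchyme and of bone-forming cells. NCAM is an adhesion molecule of the immunoglobulin superfamily that can carry polysialic acid. The SNAIL and ZEB proteins are zinc finger repressors that bind E-box sequences in the promoters of epithelial genes, Cdh1 among them, and TWIST1 is a basic helix-loop-helix factor. An osteosarcoma is of mesenchymal origin, so these factors are part of its ordinary expression.

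Values are log2 expression after RMA, a difference of 1 being 2-fold, and every difference below is the ezrinT567A-GFP mean minus GFP. The array medians over all 45101 probe sets lay between 3.85 and 3.89 and the lower quartiles between 2.55 and 2.62, and a probe set in or under that range has not been shown to be above background. Over the 3 ezrinT567A-GFP arrays the median gene had an SD of 0.13. Hybridization spike-ins averaged 9.32 on the GFP array and 10.1 to 11.1 on the others, and 18S rRNA 9.09 against 7.65 to 11.3, with replicate 2 highest in both. The 3′ minus 5′ signal was -0.27 for Gapdh and 0.23 for beta-actin on the GFP array, and -0.24 to -0.18 and 0.31 to 0.43 on the others. With 1 GFP array the test assumes that it varies like the other group, and an exact permutation of the 4 arrays cannot go below p = 0.25.

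Of the 10 genes, 4 were lower in ezrinT567A-GFP at an unadjusted limma p under 0.05. They were Cdh11 by -2.0, Ncam1 by -1.64, Cdh1 by -1.28 and Snai1 by -0.64. By the probe set that represents each gene, the other 6 had means at most 0.27 from GFP. Among them were N-cadherin and the factors Twist1, Zeb1, Zeb2 and Snai2. A dimmer Cdh2 probe set was higher by 0.49. With limma, 0 of the 10 genes had an adjusted p under 0.05, as had 0 of 18193 in all (0%), and the lowest adjusted p among the 10 was 0.241. At an unadjusted p under 0.05 there were 4 of the 10, all lower, where 14.0% of all genes met that limit and 6.50% met it on the lower side. At least 2-fold lower were 3 of the 10, against 0.704% of all genes, and 0 were at least 2-fold higher, against 0.973%. At the level of probe sets, 8 of the 27 had an unadjusted p under 0.05, 7 lower and 1, of Cdh2, higher. Of all 34945 probe sets 12.4% did, and 0 passed the adjusted threshold. All 3 ezrinT567A-GFP arrays lay below GFP for 5 of the 10, against 25.6% of all genes, and above GFP for 1, against 32.5%. The median difference of the 10 was -0.03, and that of all genes 0.03. The 10 genes were chosen with earlier results of these data known, so these counts are a description. The count of 4 at an unadjusted p under 0.05 became 2 without replicate 2 (Cdh1 and Snai1) and 2 without replicate 3 (Ncam1 and Snai1).

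**Figure D1:**
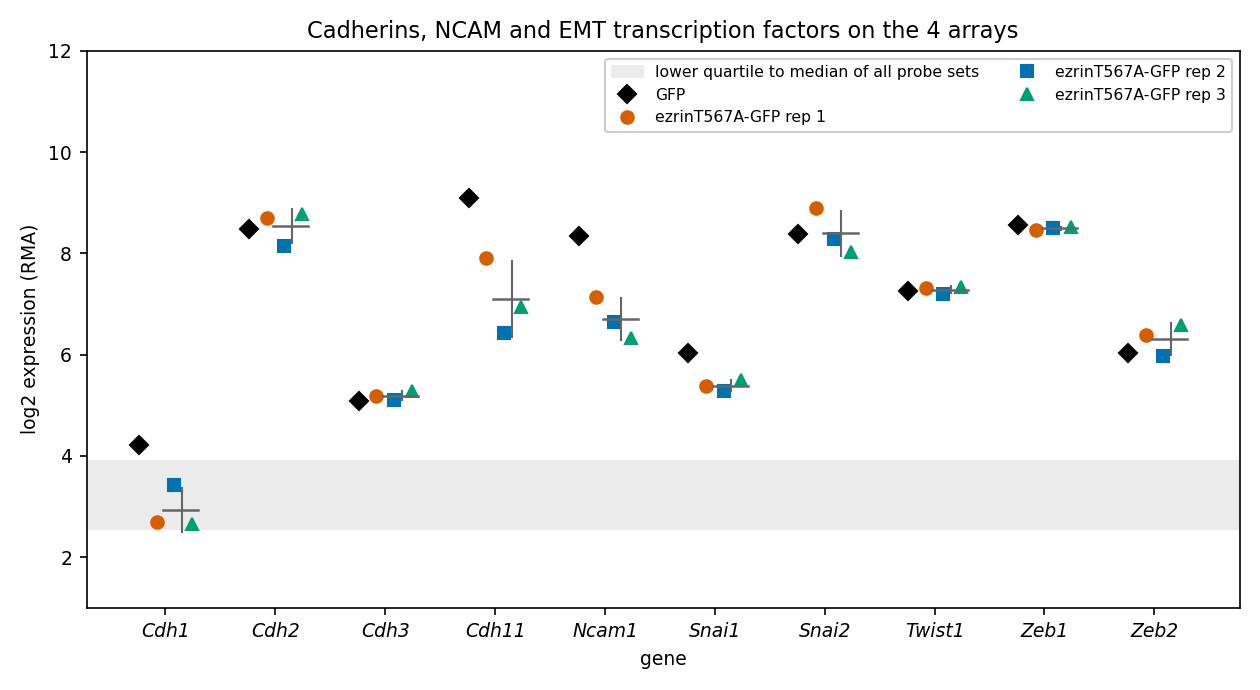
Log2 expression (vertical axis) of the 10 genes (horizontal axis) on the GFP array and on each ezrinT567A-GFP array, with a grey cross for the mean ± SD of the 3 ezrinT567A-GFP arrays and a grey band from the lower quartile to the median of all probe sets. Cdh11, Ncam1, Cdh1 and Snai1 lie below GFP on all 3 arrays, and the ezrinT567A-GFP values of Cdh1 lie inside the grey band.

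Cdh11 encodes cadherin-11, also called OB-cadherin, the type II cadherin of osteoblasts and other mesenchymal cells. It read 9.09 in GFP and 7.91, 6.43 and 6.93 in replicates 1, 2 and 3. All 3 lay below GFP, but they spanned 1.48 among themselves, the widest range of the 10 genes, with replicate 1 nearest to GFP. The difference of -2.0 (SE 0.61, 95% interval -3.65 to -0.35) is 4.0-fold, with an unadjusted p of 0.0275 and a limma adjusted p of 0.303. A second, dimmer Cdh11 probe set read 3.97 in GFP and 3.10, 2.76 and 2.54, a difference of -1.17 (SE 0.25) with a limma adjusted p of 0.308 over all probe sets. Both probe sets therefore lay lower on every ezrinT567A-GFP array, and the dimmer one ended near the lower quartile of the arrays.

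Cdh1 encodes E-cadherin, and 1 probe set measures it. It read 4.21 in GFP and 2.70, 3.43 and 2.66 in replicates 1, 2 and 3, a mean of 2.93 ± 0.43 (SD, n = 3). GFP was the only array above its median over all probe sets, and replicates 1 and 3 were close to the lower quartile, so the size of the difference is uncertain. It was -1.28 (SE 0.36, 95% interval -2.26 to -0.31), or 2.43-fold, with an unadjusted p of 0.0210 and a limma adjusted p of 0.287. Replicate 2, the array with the brightest spike-ins and 18S rRNA, was also the nearest to GFP, and without it the Cdh1 difference was -1.53. For Cdh11 and Snai1 that array was instead the farthest from GFP, and for Ncam1 it lay between the others. A link to brightness was not tested. Without replicate 1 it was -1.17 with an unadjusted p of 0.111 (limma adjusted p = 0.431), and without replicate 3 it was -1.15 with an unadjusted p of 0.0985 (limma adjusted p = 0.558).

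Cdh2 encodes N-cadherin. Its brighter probe set read 8.49 in GFP and 8.69, 8.15 and 8.77, on both sides of GFP, a difference of 0.05 (SE 0.29, 95% interval -0.73 to 0.83, limma adjusted p = 0.960). The other read 7.11 in GFP and 7.44, 7.60 and 7.78, with all 3 arrays above GFP. Its difference was 0.49 (SE 0.18), with an unadjusted limma p of 0.0468 and an adjusted p of 0.397 over all probe sets. The pair thus disagreed on replicate 2, which lay below GFP by the brighter probe set and above it by the dimmer one. Neither had an adjusted p under 0.05, and the interval of the first allows a difference of up to 0.83 above GFP.

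Cdh3 encodes P-cadherin, a type I cadherin of basal epithelial cells and placenta. It read 5.09 in GFP and 5.19, 5.10 and 5.27, a difference of 0.10 (SE 0.13, 95% interval -0.26 to 0.46, limma adjusted p = 0.803). All 3 arrays lay above GFP, replicate 2 by 0.01, which is less than the SD of 0.09. A further Cdh3 probe set read 2.24 in GFP and 2.30 on each of the other arrays, under the lower quartile.

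Ncam1 had 7 probe sets, the most of the 10 genes. The brightest read 8.34 in GFP and 7.14, 6.65 and 6.32 in replicates 1, 2 and 3, all below GFP and spanning 0.82. Its difference was -1.64 (SE 0.35, 95% interval -2.58 to -0.70), or 3.11-fold, with the smallest unadjusted p of the 10, 0.00796, and a limma adjusted p of 0.241. The next read 7.47 in GFP and 6.73, 5.94 and 6.16, a difference of -1.20 (SE 0.35). The third read 5.72 in GFP and 5.30, 5.12 and 4.72, a difference of -0.67 (SE 0.27). These 3 are the Ncam1 probe sets above the array median on all 4 arrays, and they are also those of the _a_at kind, which match several transcripts of 1 gene. The other 4 read between 2.23 and 4.10 in GFP, with differences from -0.62 to 0.08, and overlapped GFP in 3 of the 4. With the _a_at kind left out, Ncam1 is represented by a probe set that gave -0.26 (limma adjusted p = 0.793), and with the mean of all 7 it was -0.65 (limma adjusted p = 0.293), so the size rests on which probe sets are read. Whether the probe sets differ by transcript or by brightness was not tested.

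**Figure D2:**
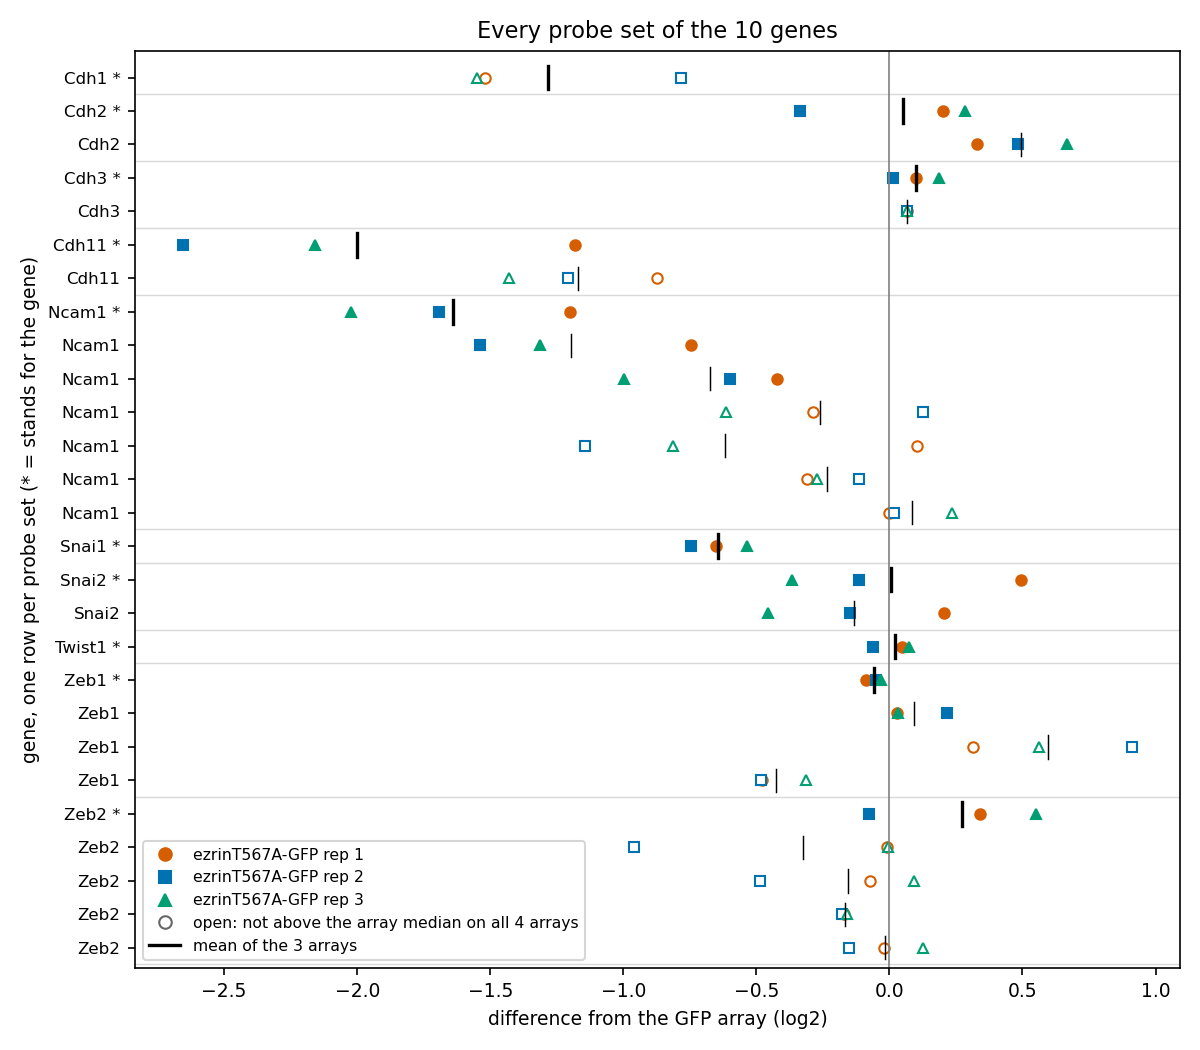
Difference of each ezrinT567A-GFP array from the GFP array on the log2 scale (horizontal axis) for all 27 probe sets of the 10 genes, one row each, with a bar at the mean and open symbols where a probe set was not above the array median on all 4 arrays. Both Cdh11 rows and the 3 brightest Ncam1 rows lie left of 0 on every array, while the Zeb1 rows lie on both sides.

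Snai1 encodes SNAIL, the zinc finger repressor best known for binding the Cdh1 promoter. It read 6.03 in GFP and 5.38, 5.29 and 5.50 in replicates 1, 2 and 3, from 1 probe set. The arrays of ezrinT567A-GFP lay within 0.21 of each other and all below GFP. The difference was -0.64 (SE 0.14, 95% interval -1.03 to -0.26), or 1.56-fold, with an unadjusted p of 0.00911 and a limma adjusted p of 0.247. In each of 10 alternative fits its difference stayed between -0.70 and -0.59 with an unadjusted p between 0.00540 and 0.0421, and in none did it pass over all genes (limma adjusted p 0.141 to 0.558). SNAIL is known as a repressor of Cdh1, and in these arrays both genes were on the lower side. Cdh1 lay under the array median on all 3 ezrinT567A-GFP arrays, and a link between the levels of these genes was not tested.

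SNAIL is also known to bind its own promoter at an E-box, and the window before the Snai1 start is shown for that reason, with the window of Twist1, whose level did not differ beyond its spread, for comparison. Both are the 250 bases before the annotated start, from RefSeq on build GRCm38.p6, 5′ to 3′ on the gene's strand, with matches to CAGGTG or its reverse complement CACCTG in capitals. Snai1 lies at chr2:167537945-167538194 and Twist1 at chr12:33957421-33957670, both on the + strand.
Snai1: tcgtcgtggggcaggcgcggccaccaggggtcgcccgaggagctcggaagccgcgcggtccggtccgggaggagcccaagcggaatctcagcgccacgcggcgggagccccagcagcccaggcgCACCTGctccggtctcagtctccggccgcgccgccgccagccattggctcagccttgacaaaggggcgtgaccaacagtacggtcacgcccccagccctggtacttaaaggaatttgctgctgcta
Twist1: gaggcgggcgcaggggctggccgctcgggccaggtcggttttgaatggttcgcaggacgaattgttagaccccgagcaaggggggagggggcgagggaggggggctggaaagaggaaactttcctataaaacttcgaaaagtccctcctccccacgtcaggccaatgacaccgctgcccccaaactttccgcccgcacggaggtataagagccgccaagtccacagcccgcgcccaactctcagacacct
The Snai1 window holds 1 match, a CACCTG whose last base is 120 bases from the end of the window, and the Twist1 window and the 4 Zeb2 windows hold 0. Of 32851 such windows of all genes 17.2% hold a match on either strand, so 1 in a single window is common. The match is a description of the sequence and says nothing of binding in these cells. RefSeq windows for 3 of the 10 genes were used.

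By the probe set that represents each gene, Snai2, Twist1, Zeb1 and Zeb2 each differed from GFP by less than the SE of the difference. Snai2, the gene of SLUG, read 8.39 in GFP and 8.89, 8.28 and 8.02, with replicate 1 above GFP and the others below. That probe set is of the _x_at kind, which can cross-hybridise, and the other Snai2 probe set read 6.42 in GFP and 6.63, 6.27 and 5.96, in the same order. Their differences were 0.01 (SE 0.37) and -0.13 (SE 0.29). The interval of the first, from -0.99 to 1.0, reaches nearly 2-fold either way.

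Twist1 read 7.26 in GFP and 7.31, 7.20 and 7.34, a difference of 0.02 (SE 0.12, 95% interval -0.32 to 0.36, limma adjusted p = 0.965), with GFP inside the range of the others. Zeb1 read 8.55 in GFP and 8.46, 8.50 and 8.52, the narrowest range of the 10 genes (0.06). All 3 arrays lay below GFP, but by -0.06 (SE 0.10, 95% interval -0.34 to 0.22, limma adjusted p = 0.858). The 3 dimmer Zeb1 probe sets gave 0.09, 0.60 and -0.43, the last pair from GFP levels of 2.55 and 2.53 at the lower quartile of the arrays. Zeb2 read 6.04 in GFP and 6.38, 5.96 and 6.59, a difference of 0.27 (SE 0.28, 95% interval -0.48 to 1.03, limma adjusted p = 0.735), with replicate 2 below GFP. Its 4 dimmer probe sets gave differences from -0.33 to -0.02.

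**Figure D3:**
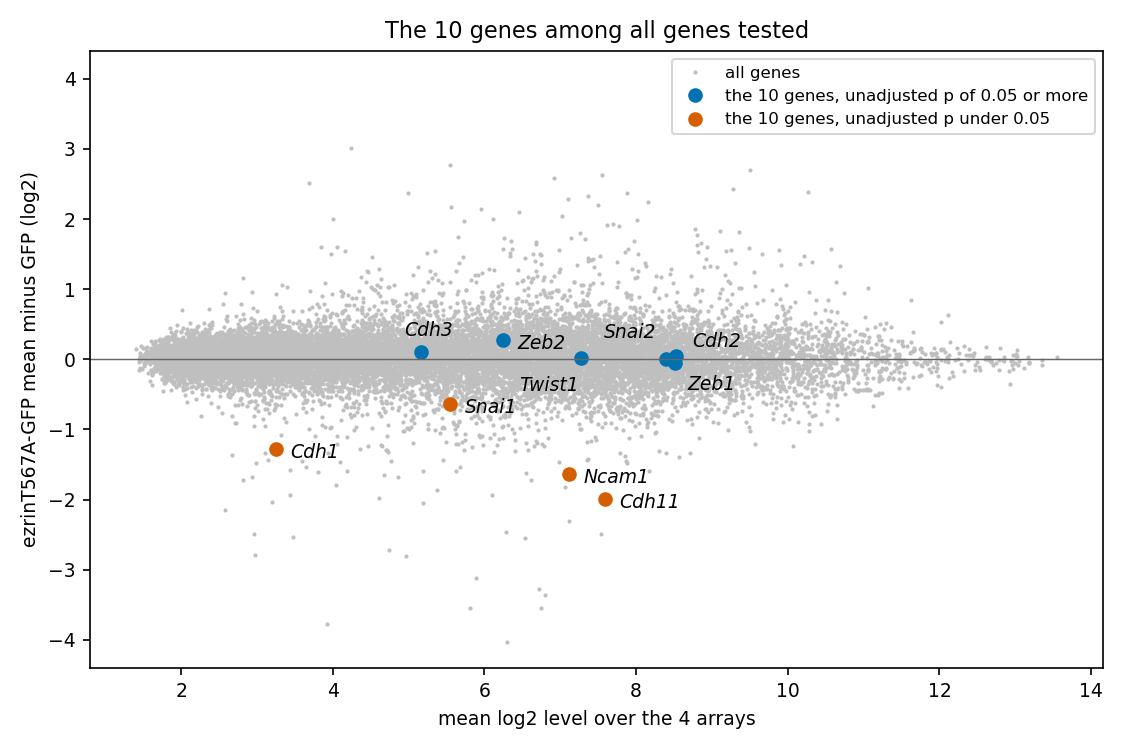
Difference between ezrinT567A-GFP and GFP (vertical axis, log2) against the mean level over the 4 arrays (horizontal axis, log2) for all 18193 genes in grey and the 10 genes in colour. Cdh11 and Ncam1 lie at -2.0 and -1.64 at middle levels, Cdh1 at -1.28 at a low level, and the genes with an unadjusted p of 0.05 or more lie near 0.

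Genes that work beside cadherins were read from lists, and adjusted p-values under 0.05 were 0 in every list named here. Catenins and other adherens junction proteins were evenly split, 7 higher and 7 lower of 14, with a median of 0.00. At an unadjusted limma p under 0.05 were 3 of the 14, against 14.0% of all genes. Ctnnb1, which encodes beta-catenin, read 11.2 in GFP against 10.8 ± 0.02 (SD, n = 3), lower by -0.34 (SE 0.08). Vcl, the gene of vinculin, which links adhesions to actin, was higher by 0.50 (SE 0.14), and Nectin2, an immunoglobulin-like junction protein, by 0.65 (SE 0.20). Beta-catenin's 3 probe sets ranged from -0.37 to -0.33.

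Of 17 other cadherins 7 were higher and 10 lower, with a median of -0.03, and 1 of the 17 had a mean level above the median gene. Cdh17, a cadherin of intestinal epithelium, read 5.38 in GFP and 3.83, 3.43 and 3.52, a difference of -1.79 (SE 0.20, limma adjusted p = 0.187). It was the 1 gene of that list at least 2-fold lower, but its 3 ezrinT567A-GFP values lay under the array median, so the size of the difference is uncertain. Cdh22 was higher by 0.31 (SE 0.11), and Cdh13, the cadherin anchored by a lipid instead of a tail, by 0.30 (SE 0.12), with probe sets from -0.03 to 0.30.

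Among NCAM relatives, partners and polysialyltransferases 8 of 15 were higher and 7 lower, with a median of 0.05. Nrcam, a relative of L1 in the same superfamily as Ncam1, read 5.40 in GFP and 4.63, 3.97 and 3.86, a difference of -1.24 (SE 0.35, limma adjusted p = 0.287), with probe sets from -1.24 to 0.48. St8sia2, which adds polysialic acid to NCAM, was at 0.43 (SE 0.17), and Prnp, the prion protein gene, at 0.21 (SE 0.09). In cadherin shedding and turnover 5 of 12 were higher and 7 lower, with a median of -0.02. Adam10, the protease that sheds cadherin ectodomains, was lower by -0.85 (SE 0.12, limma adjusted p = 0.187), although its 4 probe sets ranged from -0.85 to 0.01. Mmp3, or stromelysin-1, was lower by -0.79 (SE 0.11), with 4.18 on each ezrinT567A-GFP array, and Psen2, a subunit of gamma-secretase, was higher by 0.59 (SE 0.16), with its other probe set at -0.01.

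The other transcription factors linked to EMT were 4 higher and 8 lower of 12, with a median of -0.08. At an unadjusted limma p under 0.05 were 2 of the 12, both lower. The share of all genes was 14.0%, and 6.50% on the lower side. Tbx3, a T-box repressor, was lower by -0.99 (SE 0.21, limma adjusted p = 0.240), though its 5 probe sets ranged from -0.99 to 0.32, and the chromatin protein gene Hmga2 by -0.36 (SE 0.13), with probe sets from -0.51 to 0.01. Tcf4, an E protein that pairs with TWIST1, was at 0.41 (SE 0.18), with probe sets from -0.18 to 0.48. Corepressors and turnover enzymes of these factors were 2 higher and 11 lower of 13, with a median of -0.16. Lower were Ezh2, the Polycomb methyltransferase, by -0.65 (SE 0.17), Fbxl14, the ubiquitin ligase subunit that marks SNAIL for degradation, by -0.65 (SE 0.18), and the corepressor gene Ctbp2 by -0.60 (SE 0.19). Genes of TGF-beta and BMP signalling were 4 higher and 12 lower of 16, with a median of -0.29. For 11 of the 16 all 3 arrays lay below GFP, against 25.6% of all genes. The list holds genes of ligands, receptors, SMADs and SMAD corepressors and target genes together, and whether signalling to Snai1 differed was not tested. Id1, a target of BMP signalling, read 8.89 in GFP and 7.71, 7.19 and 7.63, a difference of -1.38 (SE 0.25, limma adjusted p = 0.223). Skil, a SMAD corepressor, was lower by -0.74 (SE 0.14), with probe sets from -0.74 to 0.00, and Smad3 was at -0.31 (SE 0.12).

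**Figure D4:**
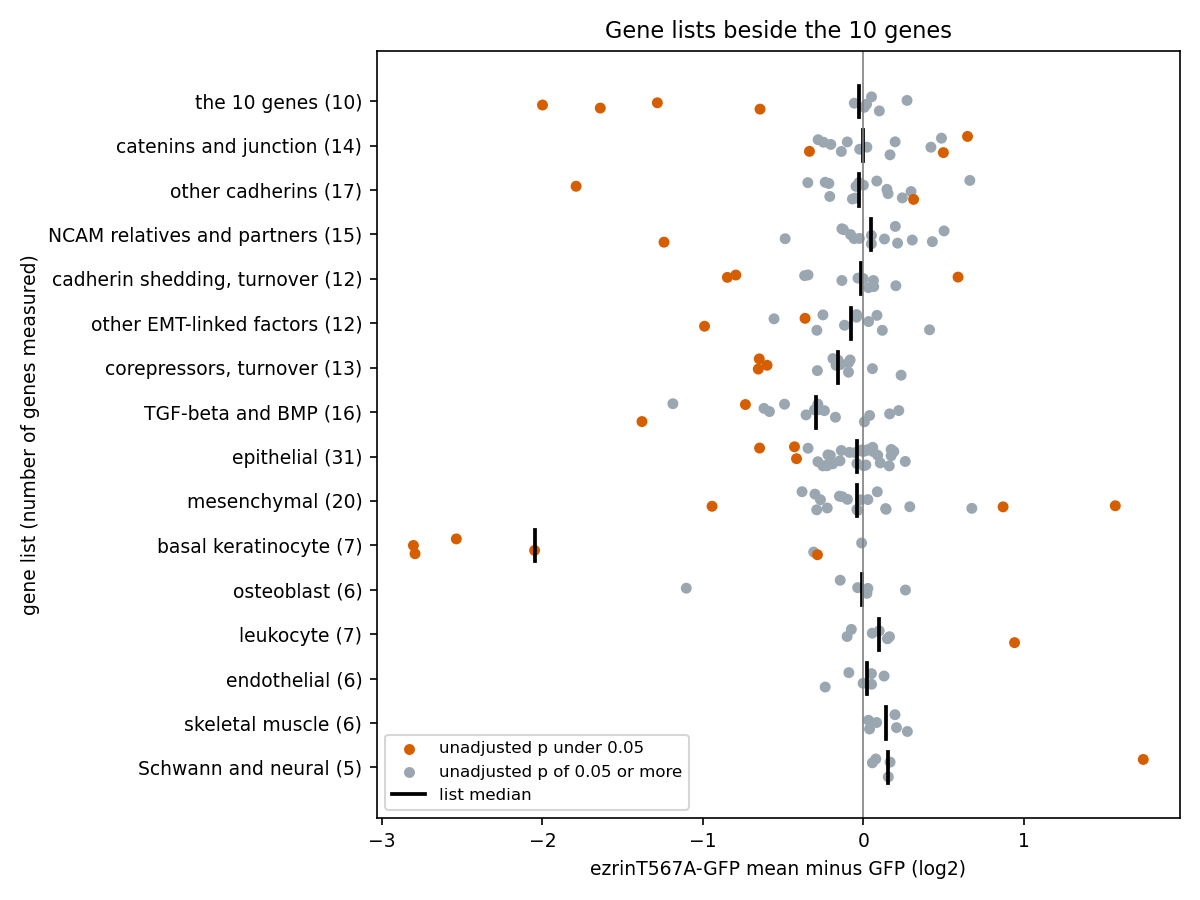
Difference between ezrinT567A-GFP and GFP (horizontal axis, log2) for each gene of 16 lists (vertical axis, with the number of genes measured), coloured by the unadjusted p, with a bar at each list's median. The basal keratinocyte list has the lowest median, -2.05, and those of the other lists lie between -0.29 and 0.15.

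Epithelial genes that ZEB and SNAIL factors are known to repress, with epithelial regulators, were 13 higher and 18 lower of 31, with a median of -0.04 and no gene at least 2-fold apart by its brightest probe set. Dsp, the gene of the desmosomal plaque protein desmoplakin, was at -0.15 by that probe set, which lay under the array median on all 4 arrays. Its other probe sets read 4.83 and 4.92 in GFP and 2.27 to 3.71 and 1.81 to 3.21 elsewhere, under the array median there, with differences of -2.01 (SE 0.64) and -2.52 (SE 0.59). At an unadjusted limma p under 0.05 there were 3 of the 31, all lower. Of all genes 14.0% met that limit, 6.50% on the lower side. Lower were Cldn4, a tight junction claudin, by -0.65 (SE 0.19) and Epcam, an epithelial adhesion protein, by -0.43 (SE 0.15). Krt8, a simple epithelial keratin gene, was lower by -0.42 (SE 0.13). Cldn4 lay under the array median on all 4 arrays, so it has not been shown to be above background on any. The Epcam value is from a probe set of the _x_at kind. A second Epcam probe set, under the array median on all 4 arrays, gave -0.08. The 3 Krt8 probe sets ranged from -0.42 to 0.32. Only 5 of the 31 had a mean level above the median gene. Mesenchymal genes were 8 higher and 12 lower of 20, with a median of -0.04. The intermediate filament gene Vim stood at 13.1 in GFP and between 13.0 and 13.1 on the other arrays. Mmp2, or gelatinase A, read 5.19 in GFP against 6.76 ± 0.27 (SD, n = 3), higher by 1.57 (SE 0.24, limma adjusted p = 0.200). Its activator Mmp14 was higher by 0.87 (SE 0.12), with probe sets from 0.24 to 0.87. Pdgfra, a growth factor receptor of mesenchyme, was lower by -0.94 (SE 0.14), with probe sets from -0.94 to -0.05.

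Basal keratinocyte markers were on the same side as Cdh1. All 7 measured were lower, Krt15 by only -0.01, with a median of -2.05. At least 2-fold lower were 4 of them, against 0.704% of all genes. Lower at an unadjusted limma p under 0.05 were 5, Dsc3 among them, against 6.50% of all genes. The list was chosen with earlier results of these data known, so these counts are a description. The linear signal of the markers, summed over the list, was 346.1 in GFP and between 77.0 and 96.6 on the ezrinT567A-GFP arrays. Krt14, read from a probe set of the _x_at kind, gave 133.9 of that sum in GFP. The 3 Krt14 probe sets ranged from -2.80 to 0.08. Perp (-2.79, SE 0.19), Krt17 (-2.54, SE 0.17) and Krt5 (-2.05, SE 0.14) had the smallest p, with 0 past the test over all genes. Perp and Krt17 lay under the array median on all 3 ezrinT567A-GFP arrays, so the sizes of their differences are uncertain, whereas Krt5 read 4.57 to 4.75 there. Krt15 and Dsc3 were under the array median on all 4 arrays, as was Trp63, the gene of the basal epithelial factor p63. Whether these markers and Cdh1 come from the same cells was not tested, and fewer cells of a kind and less RNA per cell cannot be told apart in bulk RNA.

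Markers of further cell types had list medians nearer 0 than the basal keratinocyte list. Leukocyte markers had a median of 0.10 over 7, and a summed linear signal of 4045 in GFP and 4117 to 5115 on the others. Csf1r, the receptor gene of macrophage colony-stimulating factor, gave 3851 of that sum in GFP and was bright on every array, at 11.9 in GFP and 11.9 to 12.2 elsewhere, whereas Ptprc, the gene of CD45, read 2.22 in GFP and at most 2.13 elsewhere, under the lower quartile. Cd14 was higher by 0.94 (SE 0.13). Endothelial (median 0.02 over 6), skeletal muscle (0.14 over 6) and Schwann and neural markers (0.15 over 5) summed to 49.8, 101.6 and 85.4 in GFP and to 46.1 to 52.4, 110.8 to 124.0 and 117.0 to 180.0 elsewhere, the last led by Tubb3, a neuronal tubulin gene (1.74, SE 0.42). Of 6 osteoblast markers measured, the collagen gene Col1a1 was bright (11.3 in GFP), Phex read 8.28 and Sp7 5.05, while Alpl, Ibsp and Dlx5, which also mark osteoblasts, read 3.63, 2.78 and 2.54 in GFP, under the array median. Phex, an endopeptidase of bone-forming cells, was -1.10 (SE 0.50) from GFP, Sp7 0.26 (SE 0.14) and Dlx5 -0.14 (SE 0.09).

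The nearest measured genes on the chromosome were read beside Cdh1, Cdh11, Snai1 and Ncam1, and an effect of position was not tested. Cdh1, Cdh3 and Cdh11 all lie on chromosome 8, where 516 genes with a level above the median gene had a median difference of 0.24, above 0 on each array. Cdh3 and Tango6, the measured genes on either side of Cdh1, were at 0.10 (SE 0.13) and 0.17 (SE 0.18), while Cdh1 was at -1.28. Cdh8 and Cdh5, on either side of Cdh11, were dim in GFP (2.84 and 3.70) and gave -0.21 (SE 0.13) and -0.24 (SE 0.11). Around Snai1 on chromosome 2, Rnf114 was higher by 0.92 (SE 0.16) and Ube2v1 by 0.30 (SE 0.12), so Snai1 stood against both neighbours. Ncam1 lies on chromosome 9 between Ttc12 (0.35, SE 0.15) and Plet1 (-0.17, SE 0.11), where 512 genes had a median of -0.04.

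For the genes with the smallest p, Ncam1 and Snai1, the genes with the most similar pattern were found by the Euclidean distance of their 3 differences from GFP, among 8895 other genes above the median level. Nearest to Ncam1 were Pla2g7 (distance 0.34, difference -1.47), U90926 (0.36, -1.59) and Hspb7 (0.37, -1.63). Nearest to Snai1 were Wasl (0.04, -0.64), Magt1 (0.04, -0.62) and Rac1 (0.05, -0.65). Probe sets of Wasl ranged from -0.64 to 0.47 and those of Rac1 from -0.65 to 0.11. The same GFP array enters every one of these differences and each pattern has 3 points, so the likeness is a description.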

How the data were processed

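The authors deposited 1 table of log2 values per probe set for 4 arrays, made with RMA per the submitters' processing notes. Because RMA equalises the distributions of the arrays, differences in total RNA per cell cannot be read from them. The software is not given in the sources used here, and the log2 scale was read from the range of the values.

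Of 45101 probe sets, 34958 had 1 gene symbol in the platform annotation, 932 had several and 9211 had no entry. A gene table of GRCm38.p6 held 34754 of the gene IDs and changed 0 symbols. Control probe sets were left out of the tests, leaving 34945. The 1 GFP array and the 3 ezrinT567A-GFP arrays were compared with limma 3.58.1 in R 4.3.3 (lmFit, eBayes with a mean trend, two-sided), with Benjamini-Hochberg adjustment over 18193 genes and a threshold of 0.05. A second fit ran over all probe sets. The 2 residual degrees of freedom came from ezrinT567A-GFP, with a prior worth 2.23. SE and 95% intervals are moderated.

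The 10 genes and 15 further lists were chosen with earlier results of these data known. Named genes were the 10, up to 3 per list with the smallest p, and 3 nearest in pattern to each of the 2 genes with the smallest p. Vim, Col1a1, Alpl, Ibsp, Krt14, Krt15, Dsc3, Trp63, Dsp, Csf1r and neighbouring genes were named after their values were seen. Col1a1 and Cdh5 stand in 2 lists each. The fit was tested on simulated data. Alternatives covered scaling, probe set choice, dim genes, the prior and each replicate left out. Figures used matplotlib 3.10.9 in Python 3.11.15.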

Additional observations from a re-analysis of the deposited data

Results flagged for a closer look

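The hybridization spike-ins, control probe sets outside the comparison of genes, were 1.21 higher on the log2 scale in the mean of the 3 ezrinT567A-GFP arrays than on the GFP array, with all 3 above it. They are added to the hybridization and do not measure the cells' RNA.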

How the results depend on the processing

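With 1 GFP array, no setting tests how much GFP cells vary, and signal over background was not analysed here. The number of genes with a limma adjusted p under 0.05 was 0 in the fit reported (2540 at an unadjusted p under 0.05), 36 after quantile normalization again, 6 after centring each array on its median, 6 with the mean of all probe sets of a gene, 3 without dim genes and 9 with a robust prior. It was 0 without a trend, without the _s_at, _x_at and _a_at kinds and without each replicate. None of the 10 genes passed under any of these settings, nor did any of their 27 probe sets in the settings run for probe sets. The count of the 10 at an unadjusted p under 0.05 was 3 or 4 in the settings that kept every array, and 2 to 3 with a replicate left out. Cdh1 was not tested without dim genes.

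Cdh1, Cdh11, Ncam1 and Snai1 stayed below GFP in every setting, at -1.53 to -1.15, -2.41 to -1.58, -1.86 to -0.26 and -0.70 to -0.59. Signs turned for genes near 0, none past the threshold: Snai2 gave -0.0098 after centring, -0.064 with the mean of probe sets and -0.13 without the _s_at, _x_at and _a_at kinds, and with the mean of probe sets Zeb1 gave 0.051 and Zeb2 -0.078. With a replicate left out, Cdh2 ranged from -0.067 to 0.24, Snai2 from -0.24 to 0.19 and Twist1 from -0.0069 to 0.061. No paired analysis was possible because the GFP group has 1 array, so that the groups share fewer than 2 replicate numbers.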
